A study of Mus musculus with 8 samples.

Results

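The ADAM genes (a disintegrin and metalloproteinase) were taken as every gene entry whose symbol is Adam followed by a number and at most 1 letter, which leaves out the related Adamts genes. This gave 33 of 54087 gene entries, of which 31 were among the 23353 genes that passed a filter on low counts. They were measured by stranded mRNA sequencing of whole testes from C57BL/6 male mice. At 19 days post partum (dpp) there were 2 libraries from Dnmt3A KO/KO males (KO) and 2 from Dnmt3A WT/WT males (WT), and at 25 dpp another 2 KO and 2 WT libraries. No group had any other treatment in the labels. The labels do not say how the KO allele was made, whether the gene was removed in the germ line only, or whether the 2 libraries of a group came from separate males, so p-values measure the spread between these samples, which may be technical.

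ADAM proteins are membrane proteins with a prodomain, a metalloproteinase-like domain, a disintegrin domain, a cysteine-rich domain and a cytoplasmic tail. In the mouse, widely expressed members such as ADAM10 and ADAM17 carry a working zinc-binding site and cut growth factors, cytokines, adhesion proteins and Notch from the cell surface. Many other members are made only or mainly by male germ cells, some of these lack a working protease site, and fertilin (ADAM1 with ADAM2) and ADAM3 are needed for sperm to enter the oviduct and bind the egg coat. The first wave of mouse germ cells is in meiosis at the younger of these ages and has begun to form round spermatids at the older.

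The 33 genes were split by known role into 10 of the sperm surface, 10 other testis genes of late germ cells, 2 known mainly from epididymis and lymphocytes, 8 catalytic genes of somatic cells and 3 without a working zinc-binding site that are known from neurons. On mm10, 13 of the 33 lie on chromosome 8, and 12 of these are germ cell genes. Adam18, Adam3, Adam5, Adam32 and the widely expressed Adam9 stand side by side on the minus strand there, from base 24602246, where Adam18 begins, to base 25016927, where Adam9 ends. Levels below are CPM (each library's counts divided by its gene total and brought to a common size) after TMM scaling, and a gene was called higher or lower at a Benjamini-Hochberg adjusted p under 0.05 from edgeR's quasi-likelihood test over all 23353 genes.

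Promoter sequence was at hand in RefSeq's table (GRCm38.p6, the assembly of mm10) for 17 of the 33 genes, as 250 bases before to 50 bases after the start site. It is shown because Dnmt3a encodes an enzyme that methylates cytosine, mostly at CpG, and the germ cell and somatic members differ in CpG. The 5 below are 3 germ cell genes (Adam1b, chr5:121503386-121503685, minus strand; Adam20, chr8:40793023-40793322, plus strand; Adam25, chr8:40751958-40752257, plus strand) and 2 widely expressed ones (Adam10, chr9:70678732-70679031, plus strand; Adam17, chr12:21373583-21373882, minus strand). Each is written 5′ to 3′ along the gene's strand with CpG in capitals.
Adam1b: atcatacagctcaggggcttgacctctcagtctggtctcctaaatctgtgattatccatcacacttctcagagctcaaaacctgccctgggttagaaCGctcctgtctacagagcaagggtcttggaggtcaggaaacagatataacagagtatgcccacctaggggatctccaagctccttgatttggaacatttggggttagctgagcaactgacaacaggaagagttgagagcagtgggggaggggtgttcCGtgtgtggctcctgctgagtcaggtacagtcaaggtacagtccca
Adam20: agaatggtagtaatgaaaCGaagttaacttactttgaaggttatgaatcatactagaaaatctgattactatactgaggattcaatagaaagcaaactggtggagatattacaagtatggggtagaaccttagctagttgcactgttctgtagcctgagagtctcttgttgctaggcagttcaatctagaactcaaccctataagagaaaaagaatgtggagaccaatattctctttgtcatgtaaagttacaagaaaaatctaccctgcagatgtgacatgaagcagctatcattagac
Adam25: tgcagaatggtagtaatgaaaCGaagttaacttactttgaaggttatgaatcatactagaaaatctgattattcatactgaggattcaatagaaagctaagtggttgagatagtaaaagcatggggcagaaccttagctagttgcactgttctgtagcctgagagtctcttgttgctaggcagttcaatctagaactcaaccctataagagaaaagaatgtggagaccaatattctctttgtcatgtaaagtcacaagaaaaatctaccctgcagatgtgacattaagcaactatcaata
Adam10: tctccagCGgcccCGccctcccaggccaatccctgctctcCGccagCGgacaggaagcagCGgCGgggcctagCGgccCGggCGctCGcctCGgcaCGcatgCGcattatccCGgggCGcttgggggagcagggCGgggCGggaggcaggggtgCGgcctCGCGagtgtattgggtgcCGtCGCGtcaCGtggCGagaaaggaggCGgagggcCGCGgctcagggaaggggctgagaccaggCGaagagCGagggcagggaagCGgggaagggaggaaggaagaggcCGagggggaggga
Adam17: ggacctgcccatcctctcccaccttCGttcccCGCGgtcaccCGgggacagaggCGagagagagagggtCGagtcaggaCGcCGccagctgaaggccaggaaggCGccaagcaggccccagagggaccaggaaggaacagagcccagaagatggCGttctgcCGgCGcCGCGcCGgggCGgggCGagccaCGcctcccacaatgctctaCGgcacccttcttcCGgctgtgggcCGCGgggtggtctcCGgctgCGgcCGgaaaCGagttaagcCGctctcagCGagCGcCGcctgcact
Adam1b held 2 CpG in these 300 bases and Adam20 and Adam25 held 1 each, against 32 in Adam10 and 30 in Adam17. Over the 4 sperm surface genes with a promoter the median was 1.5 CpG, and over the 6 late germ cell genes it was 0.5, with no germ cell promoter above 4. The 5 somatic catalytic genes had a median of 25, with Adam8 (6) and Adam19 (5) at the low end, and Adam22 and Adam23 had 19 and 31. The median over all 32851 promoters of the table was 7. Adam19 has 3 listed start sites, whose windows held 5, 11 and 5 CpG; the first was used for these medians and the plot, and the second, with 11, holds the gene's start in GENCODE. CpG in a promoter is a property of the letters, and methylation was not measured in these libraries.

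**Figure D1:**
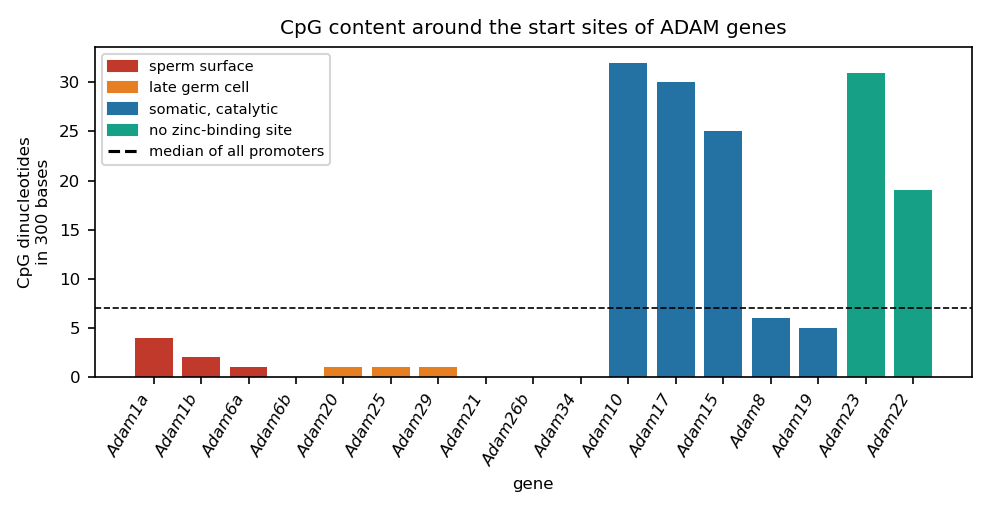
CpG dinucleotides in the 300 bases around the start site (vertical axis, a count) of the 17 ADAM genes with a promoter in the RefSeq table (horizontal axis), coloured by role; the dashed line is the median of all 32851 promoters, 7. The 10 germ cell genes have 0 to 4 and the 7 others have 5 to 32.

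Adam20 and Adam25, which lie near each other on chromosome 8, had nearly the same promoter: 93.4% of the 304 columns of their alignment were identical. The promoters of Adam10 and Adam17 were 53.3% identical over 332 columns. TGACG, the core of the cAMP response element that the germ cell factor CREM binds, was looked for on both strands. It occurred in 1 of the 17 ADAM promoters, that of Adam10, and in 20.8% of all promoters of the table, while the full palindrome TGACGTCA, which contains it, occurred in 0 of the 17 and in 1.79% of all. TGACG itself holds a CpG, so promoters with few CpG had little room for it. CAGTTG and TATAAA, also looked for, occurred in 5 and 3 of the 17, and in 13.7% and 13.6% of all promoters. CAGTTG was in 3 of the 4 sperm surface and 2 of the 5 somatic catalytic promoters. These matches describe the letters of this window only.

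Between 22515812 and 50445334 reads fell in genes per library, so 1 count in a library was worth a few hundredths of a CPM. Dnmt3a had 114 and 112 CPM in KO and 147 and 141 CPM in WT testes at 19 dpp, and 76.9 and 67.2 CPM in KO and 48.7 and 70.0 CPM in WT testes at 25 dpp. It was not called in KO against WT at either age (adjusted p = 0.201 at 19 dpp and 0.204 at 25 dpp); reads over the whole gene can come from outside a deleted part, so this does not check the labels. Summed over 15 markers of pachytene to secondary spermatocytes, the level was 253 and 374 CPM in KO and 1667 and 3407 CPM in WT testes at 19 dpp, and 1333 and 2221 CPM in KO and 15519 and 12063 CPM in WT testes at 25 dpp. Of these markers, 14 of 15 were lower in KO at each age, where 13.2% of all tested genes were lower at 19 dpp and 37.4% at 25 dpp. Over 15 spermatid markers, the sum was 8.26 and 9.71 CPM in KO and 7.13 and 7.42 CPM in WT testes at 19 dpp. At 25 dpp it was 9.74 and 13.4 CPM in KO, with Prm1, Prm2 and Tnp2 at 0 in both libraries, and 3832 and 720 CPM in WT testes. All 15 were lower in KO at that age, where 37.4% of all tested genes were. Prm1, Prm2 and Tnp2 had counts only in WT testes at 25 dpp. They were tested only because they are high there, so their calls follow from how they were kept. Other spermatid markers near 0 elsewhere may have entered the same way, so this count is a description. Summed over 30 Sertoli cell markers the order was reversed, with 14179 and 12783 CPM in KO and 7921 and 7123 CPM in WT testes at 19 dpp, and 11764 and 10019 CPM in KO and 3646 and 4569 CPM in WT testes at 25 dpp. In whole testis, fewer cells of a type and less RNA per cell cannot be told apart, and this applies to every gene below.

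The family as a whole had its highest summed level in WT testes at 25 dpp, most of it from germ cell members. Of the 33 genes, 7 had no count in KO and 11 had none in WT testes at 19 dpp, against 7 in KO and 0 in WT testes at 25 dpp. At least 5 CPM in both libraries was reached by 9 genes in KO and 13 in WT testes at 19 dpp, and by 12 in KO and 28 in WT testes at 25 dpp. The summed level of all 33 was 630 and 600 CPM in KO and 536 and 854 CPM in WT testes at 19 dpp, and 573 and 638 CPM in KO and 6748 and 4403 CPM in WT testes at 25 dpp.

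**Figure D2:**
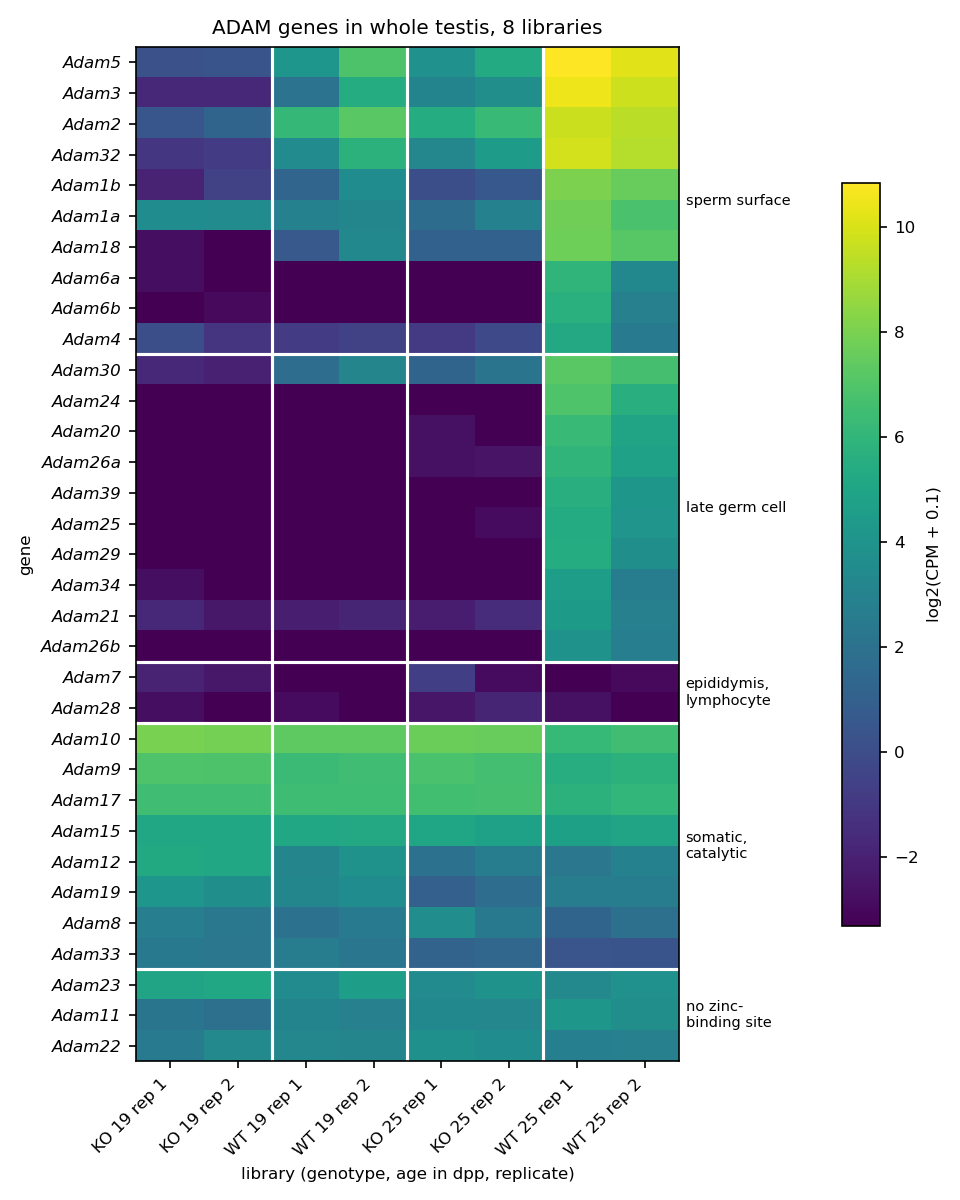
Level of the 33 ADAM genes (rows, grouped by role) in each of the 8 libraries (columns), coloured by log2 of CPM plus 0.1. Every germ cell gene is brightest in the 2 WT libraries at 25 dpp, and the rows of Adam10, Adam9 and Adam17 are bright in all 8 libraries.

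Levels of different genes were compared per kilobase of exon. In KO testes at 19 dpp Adam10 stood first with 49.8 ± 3.29 CPM per kb (SD, n = 2), then Adam9 with 29.2 ± 0.532 and Adam17 with 12.7 ± 0.302 CPM per kb, and these 3 did not overlap. In WT testes at 19 dpp Adam2 averaged 40.9 ± 21.9, Adam10 32.7 ± 0.597, Adam5 21.8 ± 22.9 and Adam9 20.6 ± 1.39 CPM per kb (SD, n = 2 each), an order that lies within the spread of the Adam2 and Adam5 values. In KO testes at 25 dpp the leading genes were Adam10 with 39.8 ± 1.85, Adam9 with 25.1 ± 1.56, Adam2 with 22.1 ± 8.39 and Adam17 with 13.6 ± 0.926 CPM per kb, where Adam9 and Adam2 differed by less than the spread of Adam2. In WT testes at 25 dpp the first 4 places were held by sperm surface genes, with Adam5 at 485 ± 144, Adam3 at 390 ± 134, Adam2 at 283 ± 44.8 and Adam32 at 262 ± 75.6 CPM per kb. All 4 were higher in replicate 1 than in replicate 2. Genes of a group were measured in the same 2 libraries, so the spread between libraries does not settle their order within a library.

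At 19 dpp the lower calls fell mainly on the ADAM genes of the sperm surface, of which 6 of 10 were lower in KO than in WT testes and 0 were higher. Over the whole family 8 of 31 were lower and 3 higher at 19 dpp, while over all tested genes 13.2% were lower and 8.8% higher. The median log2 fold change, KO over WT, was −5.92 over the 8 of the 10 that had more than 3 counts in either group, against 0 over all tested genes. Without a filter on low counts 2 of the 10 were called lower, since Adam1b, Adam3, Adam5 and Adam18 had adjusted p-values of 0.0958, 0.0831, 0.0682 and 0.0692, and with limma-voom 3 of the 10 were, with Adam1b, Adam3 and Adam5 at 0.0582, 0.0966 and 0.066. Their summed level was about 16 CPM in both KO libraries and 113 and 400 CPM in WT testes.

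Adam2 encodes fertilin beta, the partner of both ADAM1 proteins. It had 1.30 and 2.27 CPM in KO and 68.3 and 152 CPM in WT testes at 19 dpp, a log2 fold change of −5.91 (SE 0.560, adjusted p = 0.00714). Adam5, a gene next to Adam3 whose protein is found on sperm, had 1.05 and 1.16 CPM in KO and 17.4 and 119 CPM in WT testes (log2 fold change −5.93, SE 1.10, adjusted p = 0.0141). The KO libraries lay close together and far below both WT libraries, which themselves lay far apart. Adam3 encodes cyritestin, which sperm need to bind the egg coat, and had 0.210 and 0.199 CPM in KO and 4.14 and 43.7 CPM in WT testes (log2 fold change −6.85, SE 1.36, adjusted p = 0.0172). Adam32, the next gene of that row, had 0.377 and 0.483 CPM in KO and 11.1 and 54.4 CPM in WT testes (log2 fold change −6.22, SE 1.02, adjusted p = 0.0109). For all 4 genes WT replicate 2 was higher than WT replicate 1, and the summed pachytene marker level was 3407 CPM in WT replicate 2 and 1667 CPM in WT replicate 1; the part of that difference in these results was not tested.

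Adam1b, which encodes the fertilin alpha subunit of the sperm surface, was also lower in KO testes at 19 dpp (log2 fold change −4.15, SE 0.886, adjusted p = 0.0214). Adam18 had 1 count in KO testes and 377 in WT testes, so it was 338-fold lower in KO after scaling, with a 95% counting interval of 60.3 to 13400, and its adjusted p was 0.0144. The other 4 of the sperm surface were not called. Adam6a and Adam6b had at most 1 count in any group at this age. Adam4 lay between 0.341 and 0.964 CPM in all 4 libraries (adjusted p = 0.947). The annotated Adam4 overlaps Gm20498 and Cox16 on the same strand. It shares 17.4% of its 50-base stretches with other genes, chiefly Gm4787, so its low counts are uncertain. Adam1a, whose product in the endoplasmic reticulum is needed for ADAM3 to reach the surface, had 11.9 and 11.4 CPM in KO and 7.26 and 9.08 CPM in WT testes (adjusted p = 0.476). The annotated Adam1a overlaps Mapkapk5 on the same strand and shares 77.8% of its 50-base stretches with other genes, chiefly Mapkapk5, so its low counts are uncertain.

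The family's calls at 19 dpp depended on single libraries. Without KO replicate 1 the counts were 0 lower and 0 higher, with 11 ADAM genes at an unadjusted p under 0.05, and 0 genes of any kind were called in either direction, with 5256 at an unadjusted p under 0.05. Without KO replicate 2 the counts were 1 lower, Adam2, and 0 higher, and without WT replicate 1 they were 7 lower and 0 higher. Adam1b was also lost without WT replicate 1 or 2 of 25 dpp (adjusted p at the threshold of 0.05 and 0.0586), and Adam3 without WT replicate 2 of 25 dpp (adjusted p = 0.0507); the cause was not tested. The log2 fold changes of Adam1b, Adam2, Adam3, Adam5, Adam32 and Adam30 without 1 library lay between −7.72 and −2.57.

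At 25 dpp all 10 sperm surface ADAM genes were lower in KO than in WT testes and 0 were higher. In the family 22 of 31 were lower and 6 higher at that age, while over all tested genes 37.4% were lower and 26.1% higher. Of the 20 germ cell genes, 11 passed the filter on low counts only through the WT libraries at 25 dpp, which are 2 of the sperm surface (Adam6a and Adam6b) and 9 of the late germ cells (all but Adam30). These 11 were tested only because they are high in WT at 25 dpp, so their calls for KO against WT at 25 dpp and for age in WT follow from how they were kept, and counts that include them are a description. The other 8 sperm surface genes passed without those libraries, and their summed level together with Adam6a and Adam6b was 81.8 and 163 CPM in KO and 5899 and 3835 CPM in WT testes.

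Adam5 had 14.4 and 39.9 CPM in KO and 1838 and 1201 CPM in WT testes at 25 dpp (log2 fold change −5.81, SE 1.02, adjusted p = 0.00287). Adam3 had 8.28 and 12.7 CPM in KO and 1426 and 869 CPM in WT testes (log2 fold change −6.77, SE 1.11, adjusted p = 0.00225). Adam32 had 9.17 and 23.1 CPM in KO and 943 and 624 CPM in WT testes (log2 fold change −5.61, SE 0.868, adjusted p = 0.00179). Adam2 had the smallest fold of the 10, with 43.4 and 75.4 CPM in KO and 846 and 675 CPM in WT testes (log2 fold change −3.68, SE 0.482, adjusted p = 0.00102). The groups were far apart for all 4 genes.

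Both fertilin alpha genes were lower in KO testes at 25 dpp. Adam1b averaged 1.18 ± 0.291 CPM in KO and 227 ± 51.4 CPM in WT testes (SD, n = 2 each), a log2 fold change of −7.60 with an adjusted p of 0.000701. Adam1a averaged 5.26 CPM in KO, from 3.14 and 7.39 CPM, and 166 ± 79.8 CPM in WT testes, a log2 fold change of −4.99 (SE 0.527, adjusted p = 0.000534). Adam18 averaged 2.03 ± 0.00341 CPM in KO and 178 ± 47.4 CPM in WT testes (log2 fold change −6.45, adjusted p = 0.00118). Adam4 averaged 0.607 ± 0.246 CPM in KO and 21.4 ± 22.4 CPM in WT testes, where WT replicate 1 had 37.2 CPM and replicate 2 had 5.62 CPM. It was called lower (log2 fold change −5.15, adjusted p = 0.00458). Adam6a and Adam6b, near-copies on chromosome 12 whose protein joins ADAM2 and ADAM3 in a complex on mouse sperm, had 0 counts in KO. Against a floor of 3 counts over the KO group they were at least 781-fold and at least 653-fold lower in KO than in WT testes. The 2 genes share 29.5% and 29.6% of their 50-base stretches, so reads may be split between them.

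**Figure D3:**
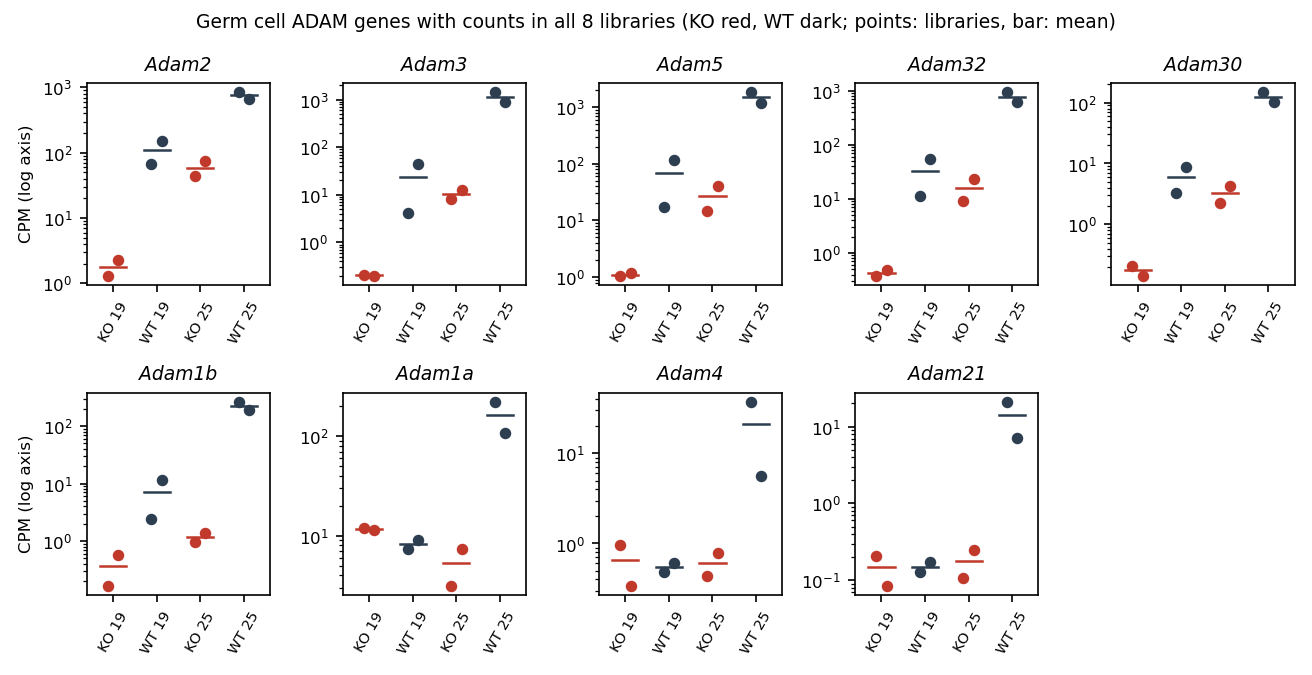
CPM on a log axis of the 9 germ cell ADAM genes that had counts in all 8 libraries, with 1 point per library and a bar at the group mean; KO in red and WT dark, at 19 and 25 dpp. For Adam2, Adam3, Adam5, Adam32, Adam30 and Adam1b the KO points at 19 dpp are the lowest and the WT points at 25 dpp the highest, and for Adam4 and Adam21 the first 3 groups lie at about the same level.

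The 10 testis ADAM genes of late germ cells differed from the sperm surface genes in that nearly all were at or close to 0 outside WT testes at 25 dpp. At 19 dpp 8 of the 10 had at most 3 counts in KO and at most 3 in WT testes, and no comparison could be made for them. Adam30 was the exception, with 0.210 and 0.142 CPM in KO and 3.28 and 8.68 CPM in WT testes at 19 dpp (log2 fold change −5.11, SE 0.721, adjusted p = 0.0083). Adam21 had 5 and 3 counts in KO and 4 and 6 counts in WT testes at that age and was not called (adjusted p = 0.983).

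At 25 dpp all 10 late germ cell genes were lower in KO than in WT testes, where Adam30 is the 1 of the 10 that did not enter the test through WT at 25 dpp alone. Adam24, which encodes testase 1, had 0 counts in both KO libraries and 123 and 46.5 CPM in WT testes, so it was at least 1870-fold lower in KO. Adam20 had 0.0541 and 0 CPM in KO and 75.0 and 31.4 CPM in WT testes, which is 2 counts against 3821 and 1760-fold lower in KO with a 95% counting interval of 486 to 14500. Adam26a had 0.0541 and 0.0710 CPM in KO and 62.6 and 27.0 CPM in WT testes (log2 fold change −9.42, SE 0.709, adjusted p = 0.000464). In each case WT replicate 1 was higher than WT replicate 2, and so was the summed spermatid marker level, 3832 and 720 CPM; the part of that difference in these results was not tested.

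Adam30 had 2.27 and 4.30 CPM in KO and 148 and 102 CPM in WT testes at 25 dpp (log2 fold change −5.26, SE 0.570, adjusted p = 0.000567), and was the late germ cell gene with the most counts left in KO. Adam21 was lower with a log2 fold change of −6.32 (SE 0.725, adjusted p = 0.000475). Adam39, Adam29, Adam34 and Adam26b had no count in KO and were at least 725-fold, 627-fold, 328-fold and 241-fold lower there. Adam25 had 1 count in KO and 2100 in WT testes, which is 1930-fold lower in KO with a counting interval of 346 to 76300. Several of these genes are recent copies of each other. Adam20, Adam25 and Adam39 each share 34.2% to 36.1% of their 50-base stretches with other genes, chiefly among themselves, Adam26a and Adam26b share 36.4% and 36.7%, and Adam34 shares 26.8% with Gm5347, so the division of reads within these groups is uncertain.

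No call among the 20 germ cell genes at 25 dpp was lost when any 1 of the 8 libraries was left out. For the 11 that passed the filter only through WT testes at 25 dpp, this is a description and no support. Without any filter on low counts, Adam6a, Adam6b and Adam24 had adjusted p-values of 0.0725, 0.0817 and 0.0647, which were the highest over all alternatives for these 3 genes, and the lowest were 0.000121, 0.000107 and 0.00011.

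Between the ages, all 20 germ cell ADAM genes were higher at 25 than at 19 dpp in WT testes, including the 11 whose direction was fixed by how they passed the filter. Without the filter Adam6a, Adam6b, Adam24 and Adam29 had adjusted p-values of 0.0754, 0.0848, 0.0677 and 0.0518 for this comparison. In the WT comparison of ages 21 of the 31 ADAM genes were higher and 4 lower at 25 dpp, while 34.9% of all tested genes were higher and 25.4% lower. Adam2 had 846 and 675 CPM at 25 dpp and 68.3 and 152 CPM at 19 dpp in WT, the smallest change of the 20 (log2 fold change 2.79, SE 0.463, adjusted p = 0.00297). Adam3, Adam5, Adam32, Adam18, Adam1b, Adam1a and Adam30 had log2 fold changes between 4.34 and 5.58 in WT, Adam4 had 5.29 and Adam21 had 6.50. Another 10 genes had no count in WT testes at 19 dpp and were at least 244-fold (Adam26b) to at least 1890-fold (Adam24) higher at 25 dpp.

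In KO testes 6 of the 20 germ cell genes were higher at 25 than at 19 dpp. Over the family 7 ADAM genes were higher and 4 lower at 25 dpp in KO, while 10.2% of all tested genes were higher and 8.87% lower. Adam2 had 43.4 and 75.4 CPM at 25 dpp and 1.30 and 2.27 CPM at 19 dpp in KO (log2 fold change 5.02, SE 0.542, adjusted p = 0.00731). Adam3, Adam5, Adam32 and Adam30 had log2 fold changes of 5.66, 4.60, 5.19 and 4.23 in KO, and Adam18 had 132 counts at 25 dpp and 1 at 19 dpp, 120-fold higher with a counting interval of 21.1 to 4760. Adam1b averaged 1.18 ± 0.291 CPM at 25 dpp and 0.368 ± 0.283 CPM at 19 dpp in KO and was not called (adjusted p = 0.312).

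The KO age calls rested on few libraries. The counts were 0 higher and 0 lower without KO 19 dpp replicate 1, with 11 ADAM genes at an unadjusted p under 0.05. They were 1 higher and 2 lower without KO 19 dpp replicate 2, 3 higher and 2 lower without KO 25 dpp replicate 1, 1 higher and 2 lower without KO 25 dpp replicate 2, 4 higher and 4 lower without WT 25 dpp replicate 1 and 3 higher and 4 lower without WT 25 dpp replicate 2.

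KO testes at 25 dpp were also set beside WT testes at 19 dpp. Both KO libraries at 25 dpp lay within the span of the 2 WT libraries at 19 dpp for Adam3 (8.28 and 12.7 CPM in KO, 4.14 and 43.7 CPM in WT) and for Adam18 (2.03 and 2.02 CPM in KO, 1.45 and 9.54 CPM in WT). For Adam2, Adam5, Adam32 and Adam30 1 of the 2 KO libraries lay within that span and the other below it. For Adam1b both KO libraries at 25 dpp, at 0.974 and 1.38 CPM, lay below both WT libraries at 19 dpp, at 2.38 and 11.7 CPM. This is a side by side reading of groups that differ in genotype and age, and it was not tested.

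The 2 genes known mainly from epididymis and lymphocytes did not pass the filter on low counts. Adam28 had at most 5 counts in any library. Adam7, which epididymal cells make and pass on to sperm, had 19 and 1 counts in KO and 0 and 1 counts in WT testes at 25 dpp, and 4 and 3 counts in KO and 0 in WT testes at 19 dpp. KO replicate 1 at 25 dpp was the library with the 19 counts, and it also had 14.7 CPM summed over the 8 other epididymis markers, with 11.3 CPM of Crisp1 and 3.25 CPM of Defb42, while the other 7 libraries had 0.0862 to 0.355 CPM. Without that library the KO group at 25 dpp held 1 count of Adam7.

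Among the catalytic ADAM genes of somatic cells the higher calls in KO outnumbered the lower ones. At 19 dpp 3 of the 8 (Adam9, Adam10 and Adam12) were higher in KO than in WT testes and 0 were lower, where 8.8% of all tested genes were higher and 13.2% lower, with a median log2 fold change of 0.39 against 0 over all tested genes. At 25 dpp 5 were higher and 1 lower, where 26.1% of all tested genes were higher and 37.4% lower, with a median of 0.80 against −0.12. Their summed level was 572 and 534 CPM in KO and 391 and 407 CPM in WT testes at 19 dpp, and 454 and 434 CPM in KO and 212 and 259 CPM in WT testes at 25 dpp. With libraries scaled to the summed Sertoli markers the direction flipped: 3 of the 8 were lower and 0 higher at 19 dpp, with a median of −0.46, and 4 were lower and 0 higher at 25 dpp, with a median of −0.60. That scaling moved the median of all genes to −0.81 at 19 dpp and −1.53 at 25 dpp.

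Adam10, the main enzyme that cuts Notch receptors at the cell surface, had the highest level of the 8 per kilobase of exon in every group. It had 256 and 233 CPM in KO and 163 and 158 CPM in WT testes at 19 dpp, a log2 fold change of 0.61 (SE 0.135, adjusted p = 0.0198). Its levels at 25 dpp were 202 and 189 CPM in KO and 72.3 and 89.1 CPM in WT testes, a log2 fold change of 1.28 (SE 0.137, adjusted p = 0.000401). The groups did not overlap at either age, and KO was higher in both libraries. Both changes were below 0 with the Sertoli scaling, at −0.24 and −0.13, and neither was called. With total counts as the scaling the call at 19 dpp was also lost (log2 fold change 0.53, adjusted p = 0.0705). Leaving out any 1 library of 19 dpp put the adjusted p at 19 dpp between 0.0633 and 0.161. Adam9, which is expressed in most tissues, followed the same course. It had 122 and 119 CPM in KO and 80.7 and 88.8 CPM in WT testes at 19 dpp (log2 fold change 0.50, SE 0.141, adjusted p = 0.0404). At 25 dpp it had 108 and 98.5 CPM in KO and 45.2 and 55.6 CPM in WT testes (log2 fold change 1.03, SE 0.143, adjusted p = 0.00084). The call at 19 dpp was lost with total counts as the scaling (adjusted p = 0.136) and without a filter on low counts (0.0564). With the Sertoli scaling its changes were −0.34 at 19 dpp and −0.37 at 25 dpp, and neither was called, and its call at 19 dpp was lost without any 1 library of 19 dpp or of KO at 25 dpp (adjusted p between 0.072 and 0.218).

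Adam17, the enzyme that releases tumour necrosis factor and ligands of the epidermal growth factor receptor, was called higher in KO at 25 dpp. It had 92.4 and 102 CPM in KO and 54.0 and 65.3 CPM in WT testes at 25 dpp (log2 fold change 0.70, SE 0.136, adjusted p = 0.00303). At 19 dpp it had 92.1 and 89.0 CPM in KO and 85.6 and 85.5 CPM in WT testes (adjusted p = 0.721), and the change of its KO effect between the ages missed the threshold (adjusted p = 0.0577). It was called lower in KO at 25 dpp with the Sertoli scaling (log2 fold change −0.69, adjusted p = 0.0115), and over all alternatives its adjusted p lay between 1.16e-06 and 0.0235. Adam17 overlaps Iah1 on the opposite strand, and the strand setting of the counting is not given in the sources used here. Adam15, another widely expressed member, had 34.0 and 34.6 CPM in KO and 34.1 and 37.0 CPM in WT testes at 19 dpp, and 31.7 and 27.7 CPM in KO and 26.2 and 30.7 CPM in WT testes at 25 dpp. The groups overlapped at both ages, and it was called at neither age (adjusted p = 0.881 and 0.744). With the Sertoli scaling Adam15 was called lower in KO at 19 dpp (log2 fold change −0.89, adjusted p = 0.00936) and at 25 dpp (−1.35, adjusted p = 0.000646). With total counts as the scaling it was called higher in KO at 25 dpp (0.52, adjusted p = 0.0437).

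**Figure D4:**
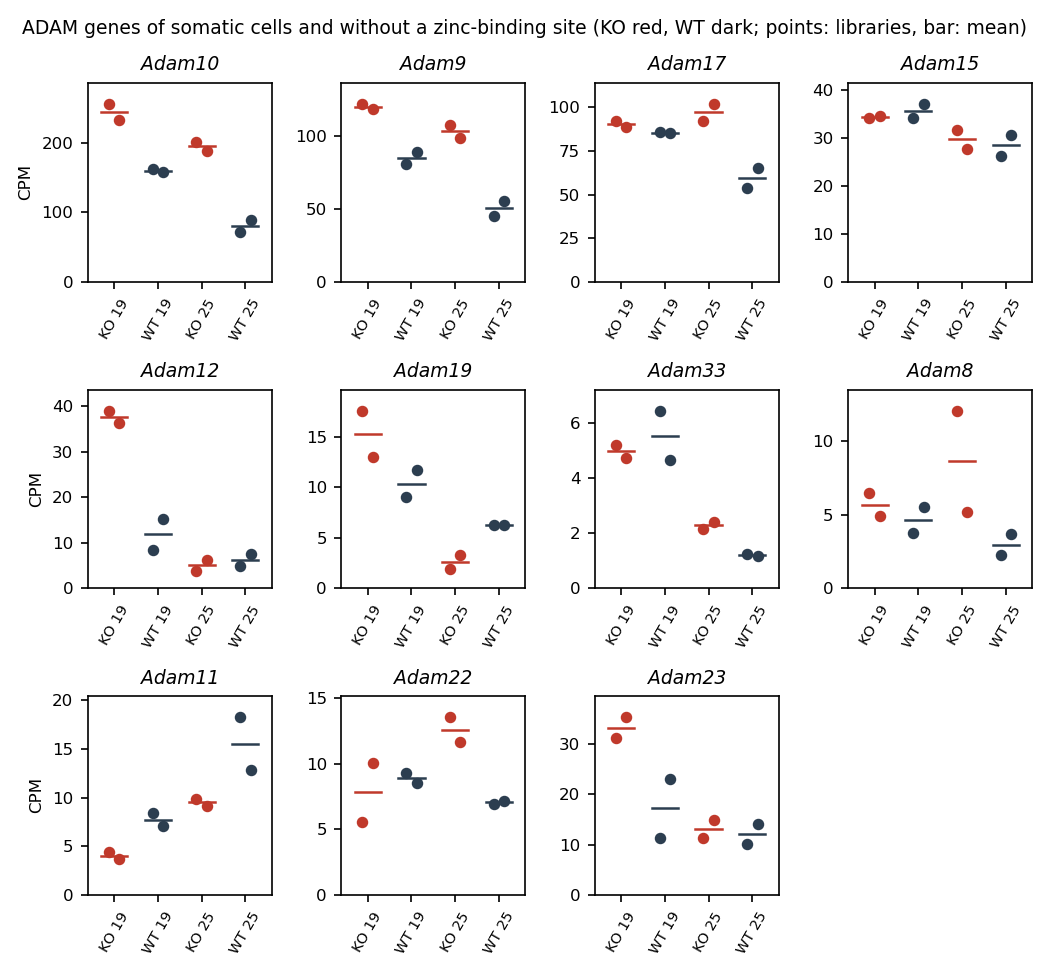
CPM, on axes that start at 0, of the 8 somatic catalytic ADAM genes and of the 3 without a zinc-binding site, with 1 point per library and a bar at the group mean; KO in red and WT dark, at 19 and 25 dpp. KO points lie above WT points for Adam10, Adam9 and Adam17 at both ages, narrowly for Adam17 at 19 dpp. The same holds for Adam12, Adam19 and Adam23 at 19 dpp and for Adam8, Adam33 and Adam22 at 25 dpp. WT points lie above KO points for Adam11 at both ages and for Adam19 at 25 dpp. Adam12 and Adam23 are highest in KO at 19 dpp.

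Adam12 and Adam19, the meltrins, which are known from mesenchyme and muscle, fell with age in KO, as did Adam33 and Adam23. Adam12 averaged 37.7 ± 1.82 CPM in KO and 11.9 ± 4.78 CPM in WT testes at 19 dpp (SD, n = 2 each; log2 fold change 1.67, SE 0.369, adjusted p = 0.0194). That call was lost without KO replicate 1 (adjusted p = 0.129), KO replicate 2 (0.0772) or WT replicate 1 (0.0616) of 19 dpp, and with the Sertoli scaling (log2 fold change 0.80, adjusted p = 0.162, the highest of its alternatives). Its mean at 25 dpp was 5.06 ± 1.73 CPM in KO and 6.16 ± 1.88 CPM in WT testes, where the groups overlapped (adjusted p = 0.521). Adam19 averaged 15.3 ± 3.25 CPM in KO and 10.3 ± 1.87 CPM in WT testes at 19 dpp (SD, n = 2 each), which was not called (adjusted p = 0.229). At 25 dpp it was the 1 somatic catalytic gene that was lower in KO, with 1.95 and 3.27 CPM in KO and 6.22 and 6.23 CPM in WT testes (log2 fold change −1.26, SE 0.320, adjusted p = 0.00983). That call was lost without KO replicate 1 at 25 dpp (adjusted p = 0.0702) and with total counts as the scaling (adjusted p = 0.0515), the 2 highest of its alternatives, the lowest being 4.03e-05. In KO testes both genes were lower at 25 than at 19 dpp, Adam12 with a log2 fold change of −2.90 (SE 0.389, adjusted p = 0.00764) and Adam19 with −2.55 (SE 0.329, adjusted p = 0.00754). Without KO replicate 1 of 19 dpp their adjusted p-values were 0.0733 and 0.0716. In WT testes neither was called between the ages (adjusted p = 0.0556 and 0.0719). Adam12 was called lower at 25 dpp in WT with DESeq2's Wald test (adjusted p = 0.0378). With total counts as the scaling both genes were called lower at 25 dpp in WT (adjusted p = 0.00833 and 0.00712). Both were also called lower there without a filter on low counts (adjusted p = 0.0163 and 0.0465). The change in the KO effect between the ages was called for both (adjusted p = 0.0386 and 0.0296). Both of those calls were lost with total counts (adjusted p = 0.0637 and 0.0556) and without most single libraries. The summed level of 11 peritubular myoid and stromal markers was 1109 and 1275 CPM at 25 dpp and 4289 and 3716 CPM at 19 dpp in KO, and 863 and 1144 CPM at 25 dpp and 2438 and 2483 CPM at 19 dpp in WT testes. Its part in these results was not tested.

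The 2 remaining somatic genes had low levels. Adam8, known from leukocytes, averaged 8.63 ± 4.87 CPM in KO and 2.96 ± 0.986 CPM in WT testes at 25 dpp (SD, n = 2 each) and was called higher (log2 fold change 1.55, SE 0.464, adjusted p = 0.0202). KO replicate 1 had 12.1 CPM and replicate 2 had 5.18 CPM, and the call was lost without KO replicate 1 (adjusted p = 0.169) or without WT replicate 1 (adjusted p = 0.0839), with a range over all alternatives of 0.00384 to 0.809. The 13 macrophage markers summed to 121 and 193 CPM in KO and 290 and 208 CPM in WT testes at 25 dpp. Aif1 alone gave 150 and 37.3 CPM of the WT sums, and the 12 markers without it, a sum added after the data were seen, came to 121 and 192 CPM in KO and 140 and 171 CPM in WT testes, which overlap. The part of these markers in the Adam8 values was not tested. Adam33, known from smooth muscle and fibroblasts, averaged 2.28 ± 0.196 CPM in KO and 1.21 ± 0.0595 CPM in WT testes at 25 dpp and was called higher (log2 fold change 0.90, SE 0.303, adjusted p = 0.0309). That call was kept without either WT library of 19 dpp, leaving out any other library put the adjusted p between 0.0502 and 0.111, and the Sertoli scaling put the change at −0.51. At 19 dpp neither gene was called (adjusted p = 0.709 for Adam8 and 0.751 for Adam33).

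In WT testes 4 of the 8 somatic catalytic genes were lower at 25 than at 19 dpp: Adam10 with a log2 fold change of −0.99, Adam9 with −0.75, Adam17 with −0.52 and Adam33 with −2.18. In KO testes 3 were lower at 25 dpp, namely Adam12, Adam19 and Adam33 (log2 fold change −1.12, adjusted p = 0.0363, and 0.111 to 0.203 without any 1 KO library), and Adam10, Adam9 and Adam17 were not called (adjusted p = 0.136, 0.315 and 0.651). Over all tested genes 25.4% were lower at 25 than at 19 dpp in WT and 8.87% in KO. With the Sertoli scaling the WT changes of Adam9 and Adam17 were above 0, at 0.12 and 0.35, and neither was called. Without WT replicate 1 of 19 dpp the adjusted p of Adam17 was 0.0524. The change in the KO effect between the ages, KO over WT at 25 dpp minus KO over WT at 19 dpp, was called negative for 5 and positive for 1 of the 31 ADAM genes, while 11.4% of all tested genes were negative and 7.68% positive. It was called for Adam10 (log2 difference 0.67, adjusted p = 0.0469) and not for Adam9 (adjusted p = 0.101) or Adam17 (log2 difference 0.62, adjusted p = 0.0577). The Adam10 call was lost with DESeq2's size factors (adjusted p = 0.0713), with the Sertoli scaling (0.814) and without most single libraries. Adam17 was called with total counts (adjusted p = 0.0121), DESeq2's Wald test (0.00658) and limma-voom (0.0462), so these calls do not set Adam10 and Adam17 apart.

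The 3 genes without a zinc-binding site, which bind LGI proteins on neurons and do not cut, each took a different course. Adam11 had 4.36 and 3.69 CPM in KO and 8.38 and 7.07 CPM in WT testes at 19 dpp (log2 fold change −0.94, SE 0.260, adjusted p = 0.0384). At 25 dpp it had 9.82 and 9.16 CPM in KO and 18.3 and 12.8 CPM in WT testes (log2 fold change −0.71, SE 0.253, adjusted p = 0.0395). It was thus lower in KO at both ages, with no overlap of the groups, and higher at 25 than at 19 dpp in KO (log2 fold change 1.24, adjusted p = 0.0189) and in WT testes (1.01, adjusted p = 0.0111). The rise with age in KO was lost without any 1 KO library (adjusted p between 0.0819 and 0.117), and in WT without WT replicate 2 of 19 dpp (0.059) or WT replicate 1 of 25 dpp (0.0936). The call of KO against WT at 19 dpp was kept without either WT library of 25 dpp, and leaving out any other library put the adjusted p between 0.0675 and 0.17. The call at 25 dpp was kept without WT replicate 2 of either age, and leaving out any other library put the adjusted p between 0.0506 and 0.34. It was also lost with total counts as the scaling (log2 fold change −0.22, adjusted p = 0.462, the highest of its alternatives, the lowest being 0.000817). Without a filter on low counts its adjusted p was 0.092, and in a fit of only the groups compared it was 0.115. The call at 19 dpp was lost with limma-voom (adjusted p = 0.0544). With total counts the rise with age in WT was lost too (log2 fold change 0.47, adjusted p = 0.141).

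Adam22 had 13.5 and 11.6 CPM in KO and 6.93 and 7.14 CPM in WT testes at 25 dpp and was called higher (log2 fold change 0.84, SE 0.302, adjusted p = 0.041). The call was kept without any 1 library of 19 dpp and lost without any 1 library of 25 dpp (adjusted p between 0.0763 and 0.157). It was also lost with DESeq2's size factors (adjusted p = 0.0659) and, at −0.58, with the Sertoli scaling (adjusted p = 0.166, the highest of its alternatives; the lowest was 0.00616). At 19 dpp Adam22 had 5.53 and 10.1 CPM in KO and 9.28 and 8.51 CPM in WT testes, groups that overlapped (adjusted p = 0.718). Adam23 had 31.2 and 35.4 CPM in KO and 11.3 and 23.1 CPM in WT testes at 19 dpp, with both KO libraries above both WT libraries and an adjusted p of 0.0897. Its levels at 25 dpp were 11.2 and 14.8 CPM in KO and 10.1 and 14.0 CPM in WT testes (adjusted p = 0.798). In KO it was lower at 25 than at 19 dpp (log2 fold change −1.35, adjusted p = 0.0361, and 0.121 to 0.181 without any 1 KO library). Summed over 8 markers of glia and neurons, the level was 315 and 297 CPM in KO and 143 and 171 CPM in WT testes at 19 dpp, and 102 and 171 CPM in KO and 92.6 and 122 CPM in WT testes at 25 dpp. Its part in the Adam23 values was not tested.

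**Figure D5:**
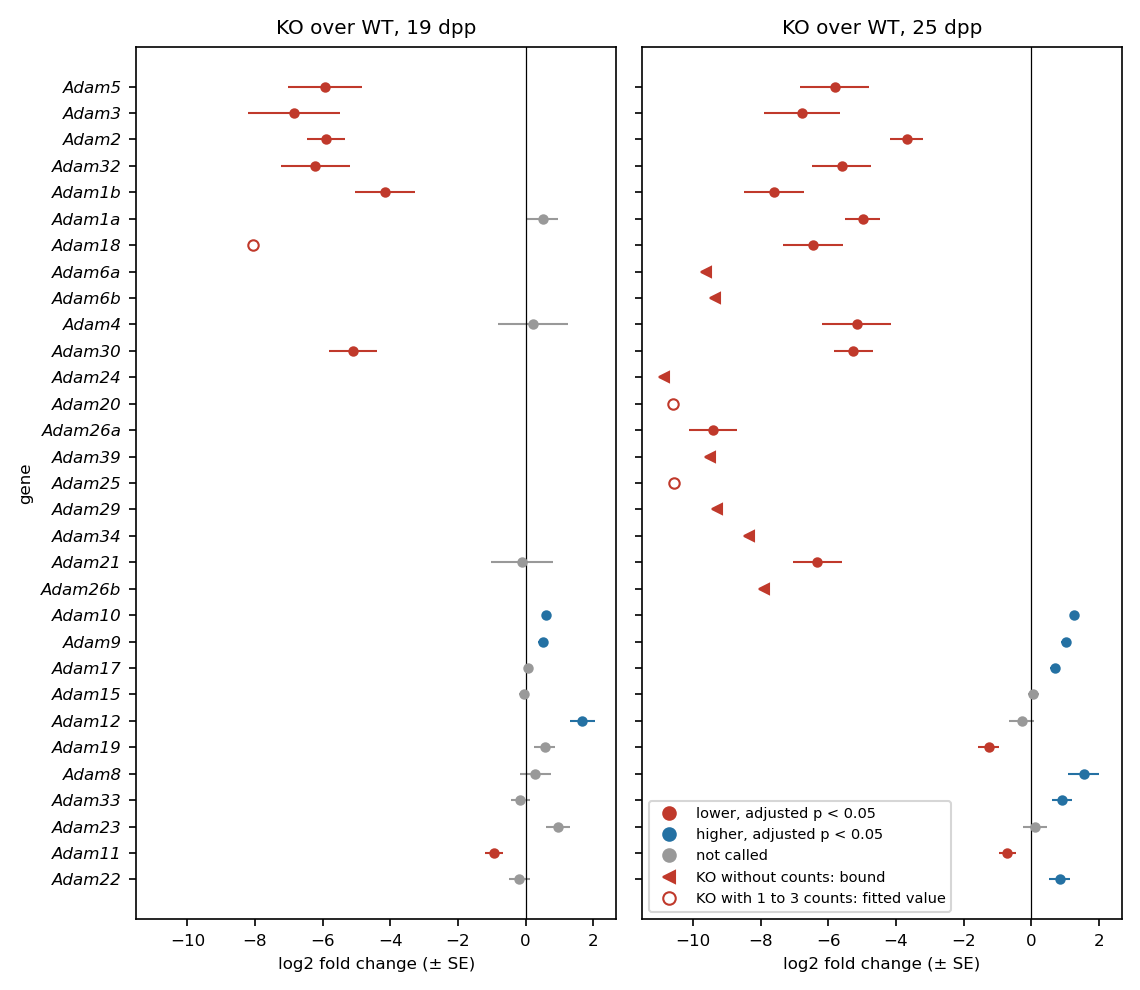
Log2 fold change of KO over WT at 19 dpp (left) and 25 dpp (right) for the tested ADAM genes, ordered by role, with bars of 1 SE; red is lower, blue higher and grey not called at an adjusted p under 0.05, triangles are bounds for genes without KO counts and open circles are genes with 1 to 3 KO counts. Genes with at most 3 counts in both groups are left out at 19 dpp; at 25 dpp all germ cell genes lie at −3.68 or below and the somatic genes between −1.26 and 1.55.

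Over the family, the split of calls between the directions moved with the scaling. It was 8 lower and 3 higher at 19 dpp, against 8 and 1 with total counts and 11 and 0 with the Sertoli scaling. At 25 dpp it was 22 lower and 6 higher, against 26 and 0 with the Sertoli scaling. For the ages in WT testes it was 4 lower and 21 higher, against 9 and 20 with total counts and 1 and 22 with the Sertoli scaling, and in KO testes it was 4 lower and 7 higher, against 2 and 7 with the Sertoli scaling. The 22 lower calls at 25 dpp are the 20 germ cell genes, Adam19 and Adam11. The 6 higher calls at 25 dpp were 3 without KO replicate 1 and 3 without WT replicate 1 of that age.

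The sets of genes that act with ADAM proteins were read in the same fits. Of 15 factors known in the mouse to fold or process ADAM3 or to bring it to the sperm surface, 7 were lower and 0 higher in KO than in WT testes at 19 dpp (median log2 fold change −2.38, or −2.53 over the 13 with more than 3 counts in either group), and 12 were lower and 0 higher at 25 dpp. Over all tested genes 13.2% were lower at 19 dpp and 37.4% at 25 dpp, and 3 of the 15 passed the filter only through WT testes at 25 dpp. Calls of these 3 for KO against WT at 25 dpp follow from how they were kept, and a count that includes them is a description. Which of the 15 they are was not listed, and Pdilt and Rnase10 below may be among them. Clgn, the calmegin chaperone of the germ cell endoplasmic reticulum, had 11.0 and 22.1 CPM in KO and 175 and 395 CPM in WT testes at 19 dpp (log2 fold change −4.10, SE 0.561, adjusted p = 0.00811). At 25 dpp it had 139 and 256 CPM in KO and 1541 and 1285 CPM in WT testes (log2 fold change −2.84, SE 0.526, adjusted p = 0.00352). It is also among the 15 pachytene markers. Pcsk4, a sperm proprotein convertase, had 17.4 and 19.5 CPM in KO and 186 and 141 CPM in WT testes at 25 dpp (log2 fold change −3.15, SE 0.346, adjusted p = 0.000485). Pdilt, a testis disulphide isomerase, averaged 0.358 ± 0.0467 CPM in KO and 100 ± 70.3 CPM in WT testes at 25 dpp (log2 fold change −8.12, adjusted p = 0.000315), and Rnase10, known from the epididymis, averaged 0.0533 ± 0.0753 CPM in KO and 7.72 ± 1.73 CPM in WT testes.

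Of 15 partners and inhibitors of ADAM10 and ADAM17, 6 were higher and 1 lower in KO testes at 19 dpp (median log2 fold change 0.61, against 0 over all tested genes), and 9 were higher and 1 lower at 25 dpp (median 0.90, against −0.12). Over all tested genes 8.8% were higher and 13.2% lower at 19 dpp, and 26.1% and 37.4% at 25 dpp. Of the 15, 1 passed the filter on low counts only through WT testes at 25 dpp. With the Sertoli scaling 0 were higher and 2 lower at 19 dpp, and 0 higher and 7 lower at 25 dpp. Tspan17, a tetraspanin that carries ADAM10 out of the endoplasmic reticulum, had 172 and 174 CPM in KO and 68.0 and 72.2 CPM in WT testes at 19 dpp (log2 fold change 1.30, SE 0.140, adjusted p = 0.00714). Timp3, an inhibitor of both enzymes, had 237 and 222 CPM in KO and 77.0 and 98.5 CPM in WT testes at 25 dpp (log2 fold change 1.39, SE 0.149, adjusted p = 0.000398), and its relative Timp2 was higher by 1.38 on the log2 scale. Frmd8, which holds the iRhom and ADAM17 complex at the surface, was the 1 partner that was lower at 25 dpp. It had 40.1 and 44.1 CPM in KO and 112 and 97.4 CPM in WT testes (log2 fold change −1.32, SE 0.142, adjusted p = 0.000405).

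Among 20 known substrates of ADAM10 and ADAM17, 17 passed the filter on low counts; 9 were higher and 1 lower in KO testes at 19 dpp (median log2 fold change 0.80), and 10 were higher and 4 lower at 25 dpp (median 1.01). These are 52.9% higher and 5.88% lower at 19 dpp, where 8.8% and 13.2% of all tested genes were, and 58.8% higher and 23.5% lower at 25 dpp, where 26.1% and 37.4% were. With the Sertoli scaling 1 was higher and 1 lower at 19 dpp, and 0 higher and 8 lower at 25 dpp. Notch1, a receptor that ADAM10 cuts, had 101 and 92.8 CPM in KO and 25.3 and 37.5 CPM in WT testes at 25 dpp (log2 fold change 1.63, SE 0.199, adjusted p = 0.000568). App, the amyloid precursor, had 570 and 463 CPM in KO and 169 and 203 CPM in WT testes at 25 dpp (log2 fold change 1.47, SE 0.191, adjusted p = 0.00068). Tnfrsf1a, a receptor of tumour necrosis factor, was higher by 1.29 on the log2 scale at 25 dpp, and Nrg1, a neuregulin, by 2.33 at 19 dpp.

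Of the 4 LGI genes, whose secreted products bind ADAM11, ADAM22 and ADAM23, 2 were higher in KO testes at 19 dpp, and 2 were higher and 2 lower at 25 dpp. With 26.1% of all tested genes higher and 37.4% lower at 25 dpp, and 8.8% higher at 19 dpp, these counts over 4 genes are a description only. Of the 4, 1 passed the filter on low counts only through WT testes at 25 dpp. Lgi2 turned round between the ages, with 7.76 and 6.30 CPM in KO and 2.25 and 3.42 CPM in WT testes at 19 dpp (log2 fold change 1.31, SE 0.354, adjusted p = 0.036) and 0.433 and 0.249 CPM in KO and 2.10 and 1.81 CPM in WT testes at 25 dpp (log2 fold change −2.49, SE 0.412, adjusted p = 0.00163). The change in its KO effect was −3.79 on the log2 scale (adjusted p = 0.00714). With the Sertoli scaling 0 of the 4 were higher at either age.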

How the data were processed

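Whole-testis RNA was isolated with Trizol and DNase and turned into TruSeq Stranded mRNA libraries, per the labels. The authors deposited raw counts, 1 file per library. Per the submitters' processing notes, STAR 2.7.0a, featureCounts 1.5.1 and mm10 were used. The annotation, the strand setting and the treatment of reads with several alignments are not given in the sources used here. Of 55292 entries, 1205 are repeat families, with 4.1% to 5.68% of counts, and were left out. Totals per library were 23870641 to 52601321 counts, and intervals and floors cover counting error only.

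Counts were scaled by TMM and filtered by group with filterByExpr. The 4 groups were fitted together in edgeR 4.0.16 (robust quasi-likelihood, 4 residual degrees of freedom, R 4.3.3), with Benjamini-Hochberg adjustment over 23353 genes in each of 5 contrasts. Each SE was derived from the log2 fold change and its F value. The procedure was checked on simulated counts.

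The members, role groups and other gene lists were chosen with earlier results of these data known. Per-library values were given for the 4 members of each role group with the highest mean CPM and for members called against the direction of their group, and also for Adam1a, Adam1b, Adam4, Adam7, Adam8, Adam12, Adam18 and Adam21, which were added after their values were seen. Of each list of partner genes, up to 4 with the smallest p were named. Adam34l had no matching entry.

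Positions, exon lengths and shared 50-base stretches came from GENCODE M21 (GRCm38), and promoters from RefSeq. Alternatives were DESeq2 size factors, total counts or 30 Sertoli markers as scaling, no filter or 5 CPM in 2 libraries, DESeq2 1.42.0's Wald test, limma-voom (limma 3.58.1), a replicate block, fitting only the groups compared, and leaving out each library.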

Additional observations from a re-analysis of the deposited data

Results flagged for a closer look

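The change of the KO effect between the ages, KO over WT at 25 dpp minus KO over WT at 19 dpp, was tested for each gene. It was called negative for 5 of the 31 tested ADAM genes and positive for 1, while over all tested genes 11.4% were negative and 7.68% positive. With DESeq2's size factors or the Sertoli scaling the split was 5 and 0, and with total counts it was 3 and 6.

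For 3 germ cell genes KO was lower at 25 dpp and not called at 19 dpp, where levels were low in both genotypes. The log2 difference was −5.49 for Adam1a (SE 0.680, adjusted p = 0.00656), −5.36 for Adam4 (adjusted p = 0.0443) and −6.20 for Adam21 (adjusted p = 0.0169), which passed the filter on low counts only through WT testes at 25 dpp. Adam1a kept the call without each library in turn. Its low counts are uncertain, since it shares 77.8% of its 50-base stretches with other genes, chiefly Mapkapk5. Those of Adam4 are uncertain too, since it overlaps Gm20498 and Cox16 on the same strand. Adam4 lost it without either KO library or either WT library of 19 dpp or either KO library of 25 dpp (adjusted p between 0.0538 and 0.17), and Adam21 without KO replicate 1 of 19 dpp (0.107) or of 25 dpp (0.0604).

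For the meltrin genes the KO effect at 25 dpp lay below that at 19 dpp, by −1.96 for Adam12 (SE 0.521, adjusted p = 0.0386) and −1.82 for Adam19 (SE 0.442, adjusted p = 0.0296). Adam12 kept the call only without WT replicate 2 of 19 dpp or WT replicate 1 of 25 dpp, and Adam19 only without WT replicate 2 of 19 dpp, KO replicate 2 of 25 dpp or WT replicate 2 of 25 dpp; leaving out any other library put the adjusted p between 0.0529 and 0.131.

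Adam10 was higher in KO by 0.67 more on the log2 scale at 25 than at 19 dpp (SE 0.191, adjusted p = 0.0469). It kept the call only without WT replicate 2 of 25 dpp, with adjusted p-values of 0.0839 to 0.158 without any other library, and with the Sertoli scaling the difference was 0.11 (adjusted p = 0.814).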

How the results depend on the processing

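The 20 germ cell genes stayed lower in KO at 25 dpp in every alternative in which they were tested, apart from lost calls of Adam6a, Adam6b and Adam24 without a filter; 11 of the 20 passed the filter only through WT testes at 25 dpp. With Sertoli markers as scaling, the log2 fold changes of KO over WT turned to −0.34 for Adam9 and −0.24 for Adam10 at 19 dpp, and at 25 dpp to −0.37 for Adam9, −0.13 for Adam10, −0.69 for Adam17, −0.51 for Adam33 and −0.58 for Adam22. Those of 25 over 19 dpp in WT turned to 0.12 for Adam9 and 0.35 for Adam17. This scaling moved the median of all genes by −0.81 and −1.53 for KO over WT at 19 and 25 dpp, by 0.89 and 0.30 for the ages in WT and KO, and by −0.59 for the change of the KO effect. Total counts moved it to 0.34 at 25 dpp, −0.51 for the ages in WT and 0.52 for the change of the KO effect, and DESeq2's size factors to −0.23, 0.15 and −0.12.

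Counts of ADAM calls moved as follows, and the cause was not tested beyond the shift in scaling. For KO against WT at 19 dpp, higher calls were 1 with total counts and 0 with Sertoli markers, and lower calls were 4 without a filter and 4 with limma-voom. At 25 dpp, higher calls were 0 with Sertoli markers. For the ages in WT, lower calls were 9 with total counts and 1 with Sertoli markers, and without a filter they were 6, with 17 higher. For the ages in KO, lower calls were 2 with Sertoli markers, and higher calls were 3 without a filter and 3 with limma-voom. For the change of the KO effect, lower calls were 3 with total counts, 10 with DESeq2's Wald test and 12 with limma-voom, and higher calls were 0 with DESeq2's size factors, 6 with total counts, 0 with Sertoli markers, 2 without a filter, 2 at 5 CPM, 3 with the Wald test and 2 with limma-voom.

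Leaving out each library in turn gave 0 to 7 lower and 0 to 3 higher calls for KO against WT at 19 dpp, 20 to 22 and 3 to 6 at 25 dpp, 4 to 5 and 20 to 21 for the ages in WT, 0 to 4 and 0 to 7 for the ages in KO, and 1 to 7 and 0 to 3 for the change of the KO effect. A lone library left in a group was assumed to vary like the others. The replicate numbers share only a number: deviations of same-numbered libraries correlated between −0.108 and 0.471 over the 6 pairs of groups. A replicate block gave 8 lower and 3 higher at 19 dpp, 22 and 6 at 25 dpp, 5 and 21 for the ages in WT, 4 and 7 in KO, and 6 and 1 for the change of the KO effect. The genes were not the same: with the block Adam9 was no longer called at 19 dpp (adjusted p = 0.0515) and Adam23 was (0.0257), Adam12 was added for the ages in WT (0.0218), and for the change of the KO effect Adam4 (0.0541) and Adam10 (0.0624) were no longer called, while Adam6a (0.0218), Adam34 (0.0312) and Adam2 (0.0343) were. Depth limits the late germ cell genes outside WT testes at 25 dpp, where most had 0 counts.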
